A study of Mus musculus with 8 samples.

Results

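The nuclei that the authors labelled stroma 2 were compared between dilated and untreated mouse irises. Stroma 2 is a cluster of *Tfap2b*-expressing connective tissue cells of the iris. The libraries of this comparison held 5094 stroma 2 nuclei of 25392 nuclei in all, and the 8 libraries of the series held 6763 of 34357. All of the nuclei with this label were used, and their unique molecular identifiers (UMIs, each counted as a transcript) were summed per library, since nuclei of the same library are not replicates. The 2 dilated libraries held 1340 and 714 stroma 2 nuclei and the 3 untreated libraries 277, 1317 and 1446.

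Each library was made by single nucleus RNA-seq from a pool of irises of female, adult, albino mice of WT genotype, with some ciliary body in varying amounts. Dilated mice received hourly eye drops of phenylephrine and cyclopentolate for several hours in the dark, and untreated mice received no drops. Drug, dilation and darkness therefore cannot be told apart. Irises constricted with pilocarpine in the light (3 libraries) entered the fit to estimate the spread between libraries, and their levels are given where they place a result.

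The iris stroma is a loose connective tissue of fibroblasts, melanocytes, vessels and nerves in front of the muscles and the pigmented epithelium. It is folded toward the iris root when the pupil widens and stretched when the pupil narrows. Phenylephrine activates alpha-1 adrenergic receptors, which contract the dilator muscle, and cyclopentolate blocks the muscarinic receptors through which the sphincter contracts. Both kinds of receptor can also lie on cells other than muscle, and connective tissue cells answer mechanical load through actin-linked transcription factors, SRF with MRTF and YAP/TAZ with TEAD.

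Stroma 2 made up 18.3% to 22.3% of the nuclei of the dilated and untreated libraries, with 827302 to 3710556 summed UMIs and a median of 2281.5 to 2999 UMIs per nucleus. The groups overlapped in the share of nuclei and in the UMIs per nucleus: the share of nuclei was 18.8 ± 0.681% in dilated and 20.5 ± 1.77% in untreated libraries (SD, exact permutation test, two-sided, p = 0.4, where the smallest p possible is 0.2). The median percent of mitochondrial UMIs did not overlap, at 0.0766 and 0.0477 in dilated replicates 1 and 2 and at 0.0356, 0.0463 and 0.0419 in untreated replicates 1 to 3 (exact permutation test, two-sided, p = 0.2), and its part in the results was not tested. Untreated replicate 1 was the smallest of the 5 libraries, and 5% of its barcodes also occurred in another library, against 0.688% to 1.57% in the other 4. By their library numbers the samples fall into series, the first with replicate 1 of each group and the third with dilated replicate 2 and untreated replicates 2 and 3. Of the 10 markers of stroma 2, *Tfap2b*, *Dcn*, *Pdgfra* and *Dkk2* were each at 569 CPM (UMIs of a gene per 1000000 stroma 2 UMIs of the library) or more in all 5 libraries. None of the 10 passed the test below, but 9 had a log2 fold change below 0 (median -0.45) and 6 an unadjusted p under 0.05. With the library series as a block 3 were called lower, where 248 of all 12788 genes tested were. Their summed level was 18900 to 20623 CPM in untreated and 14743 and 15565 CPM in dilated libraries, so the markers that identify these nuclei were lower in sum after dilation.

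Of 12788 genes tested in stroma 2, 221 differed between dilated and untreated libraries, and rises outnumbered falls. A change was called where edgeR's quasi-likelihood test gave an adjusted p under 0.05 (Benjamini-Hochberg over all genes tested) and the log2 fold change lay outside -0.6 to 0.6. The p-values measure the spread between these libraries. By this rule 172 genes rose (1.35% of the genes tested) and 49 fell (0.383%). All 221 moved the same way in each of the 6 pairs of a dilated and an untreated library, and in both library series that hold both conditions. The same libraries gave the calls, and the test favours genes without overlap, so this is no independent check. The median log2 fold change over all tested genes was 0.0085. Changes of over 4-fold were found for 59 of the 221 genes, 53 of them rises and 6 falls. The counts depended on the untreated libraries: 33 genes rose and 5 fell without untreated replicate 2, and 20 rose and 2 fell without untreated replicate 3. With the library series as a block 399 genes rose and 248 fell. Without dilated replicate 2 the falls dropped to 10, and without dilated replicate 1 107 genes rose and 30 fell.

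The calls that held in all 12 alternatives tried, including each library left out in turn, comprised 18 rises and 2 falls. The rises included *Thbs1*, *Dusp1*, *Actn2*, *Nudt4*, *Slc12a2*, *Col8a1*, *Rasl11b*, *Arrdc3*, *Adra2a*, *Samd4*, *Tmem100*, *1700011I03Rik*, *Csrp2*, *Sema3g*, *Timp3*, *Pde8b* and *Arid5b*, and the falls were *Sez6l* and *Mamdc2*. *Actn2* and *Nudt4* are described after their values were seen. *Actn2*, which encodes a sarcomeric alpha-actinin, was at 33.8, 26.6 and 21.2 CPM in untreated replicates 1 to 3 and at 219 and 153 CPM in the dilated replicates 1 and 2. *Nudt4*, a nucleotide and inositol phosphate hydrolase, went from 48.3, 31.3 and 27.5 CPM to 203 and 238 CPM in the same order of libraries. The groups were far apart in both genes, with log2 fold changes of 2.87 ± 0.24 (SE) and 2.75 ± 0.23.

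Genes of secreted proteins and early response genes were among the 12 largest rises. *Thbs1* (chromosome 2 from 118111876 to 118127133, GENCODE positions on mm10), which encodes the matrix protein thrombospondin-1, was at 9.67, 7.19 and 3.96 CPM in the untreated replicates 1 to 3 and at 167 and 118 CPM in the dilated replicates 1 and 2. Its log2 fold change of 4.55 ± 0.33 (SE, adjusted p = 8.85e-05) was the largest among the genes that held in all alternatives. *Fst* (chromosome 13 from 114452290 to 114458951), which encodes the secreted activin antagonist follistatin, was at 71.3, 45.7 and 34.8 CPM in untreated and 664 and 748 CPM in dilated libraries. The lowest dilated library was thus at over 9 times the highest untreated one, and the log2 fold change was 3.93 ± 0.55 (SE, adjusted p = 0.00542). Without untreated replicate 3 the adjusted p of *Fst* was 0.0538.

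**Figure D1:**
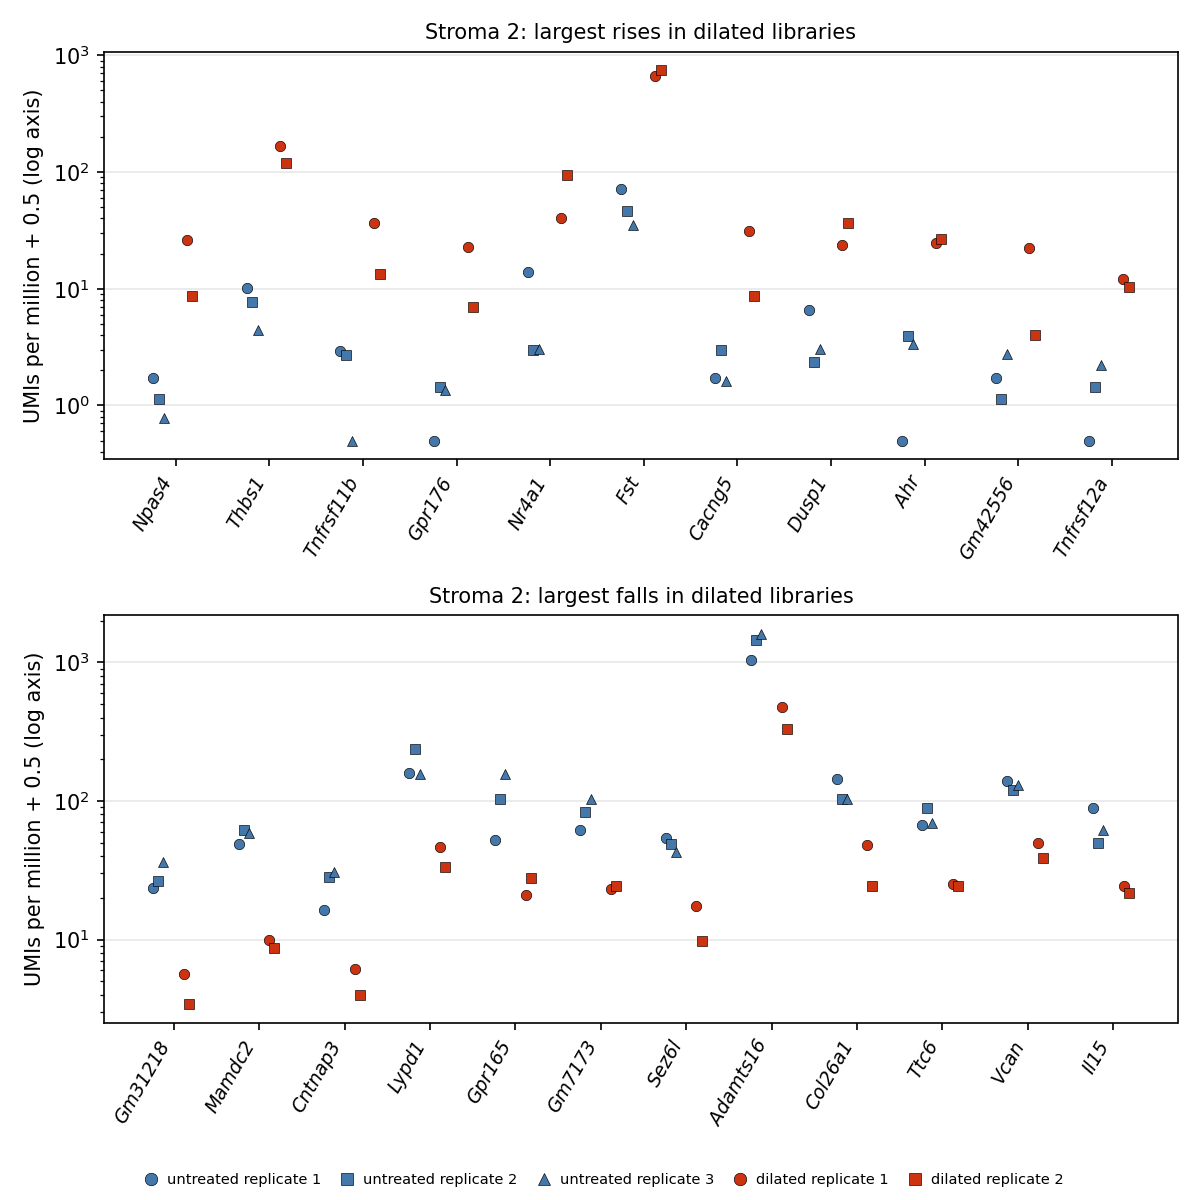
Level in stroma 2 of 11 of the 12 genes with the largest rises (top) and the 12 with the largest falls (bottom), in CPM plus 0.5 on a log axis; each symbol is a library, blue for untreated and red for dilated. In all genes shown the dilated and untreated libraries do not overlap, as the rule for choosing them required; *Fst* lies at 34.8 to 71.3 in untreated and at 664 and 748 in dilated libraries.

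*Nr4a1*, a nuclear receptor gene induced within minutes by many stimuli, was at 13.3, 2.50 and 2.55 CPM and 40.2 and 92.9 CPM (log2 fold change 4.04 ± 0.53). *Dusp1*, which encodes a phosphatase that turns off MAP kinases, was at 6.04, 1.88 and 2.55 CPM and 23.2 and 36.2 CPM (3.41 ± 0.44). In both genes untreated replicate 1 was the highest untreated library. A further 7 rises, *Npas4*, *Tnfrsf11b*, *Gpr176*, *Cacng5*, *Ahr*, *Gm42556* and *Tnfrsf12a*, were at 0 to 3.44 CPM in untreated libraries and at 3.5 to 36.1 CPM in dilated ones. *Ahr* encodes the aryl hydrocarbon receptor, *Tnfrsf11b* the decoy receptor osteoprotegerin and *Npas4* an activity-dependent transcription factor, and *Gm42556* is annotated as an antisense RNA. The untreated level of these 7 genes rests on a few UMIs, for *Npas4* on 4 UMIs in the 3 libraries together against 110 in the dilated ones, so the size of their log2 fold changes, between 3.19 and 4.92, is uncertain. In the constricted libraries *Ahr* was at 4.49, 6.46 and 7.87 CPM, *Tnfrsf12a* at 4.49, 2.15 and 9.18 CPM and *Gm42556* at 7.29, 4.31 and 3.94 CPM. These lay above every untreated library, which did not hold for all constricted libraries in *Npas4*, *Tnfrsf11b*, *Gpr176* and *Cacng5*. All constricted values of *Gm42556* also lay above dilated replicate 2, which was at 3.50 CPM with 6 UMIs. With the library series as a block *Gm42556* did not pass the edgeR test (adjusted p = 0.0514). *Cacng5* was at 8.61 CPM in constricted replicate 2 and at 8.18 CPM in dilated replicate 2.

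The largest falls included genes of adhesion and of the matrix. *Adamts16*, which encodes a secreted metalloprotease, was at 1043, 1444 and 1610.4 CPM in the untreated replicates and 477 and 329 CPM in the dilated ones (log2 fold change -1.73 ± 0.29, adjusted p = 0.0127). *Mamdc2*, the gene of a proteoglycan, fell from 48.3, 61.0 and 58.3 CPM to 9.43 and 8.18 CPM (log2 fold change -2.63 ± 0.25, adjusted p = 4.91e-04). *Lypd1*, whose protein is anchored to the cell surface and binds nicotinic receptors, fell from 158, 236 and 156 CPM to 46.4 and 32.7 CPM. *Vcan*, which encodes the large proteoglycan versican, fell from 139, 119 and 130.2 CPM to 49.6 and 38.0 CPM. *Sez6l*, a neuronal surface protein gene, fell from 53.2, 48.5 and 42.5 CPM to 16.98 and 9.35 CPM. The groups of libraries were again apart in each of them. The other falls were *Gm31218*, *Cntnap3*, *Gpr165*, *Gm7173*, *Col26a1*, *Ttc6* and *Il15*, with log2 fold changes between -2.71 and -1.46. In the constricted libraries *Mamdc2* was at 28.0, 32.3 and 22.3 CPM, *Lypd1* at 68.4, 149.6 and 52.5 CPM and *Cntnap3* at 7.85, 6.46 and 9.18 CPM. These levels lay below every untreated and above both dilated libraries. For *Gm31218* and *Gpr165* the constricted libraries overlapped the untreated ones, and for the rest they are not given here. Of the 12 falls, *Mamdc2* and *Sez6l* also passed without untreated replicate 3, and the adjusted p of the other 10 was then 0.053 to 0.165.

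The adrenergic receptor genes that passed the test moved in opposite directions. *Adra1b* (chromosome 11 from 43774606 to 43901210), the gene of an alpha-1 receptor, the class that phenylephrine activates, was at 219, 258 and 231 CPM in the untreated replicates and 96.8 and 92.9 CPM in the dilated ones. It fell by 1.28 ± 0.26 on the log2 scale (adjusted p = 0.0261), the dilated libraries lying within 4 CPM of each other, but its adjusted p was 0.131 without untreated replicate 2 and 0.13 without untreated replicate 3. *Adra2a* (chromosome 19 from 54044151 to 54048982), whose alpha-2 receptor couples to inhibition of adenylyl cyclase, was at 26.6, 27.8 and 22.4 CPM and 102 and 120.3 CPM and rose by 2.16 ± 0.29 (SE, adjusted p = 0.00379). In constricted libraries *Adra2a* was at 65.0, 23.7 and 43.9 CPM and *Adra1b* at 211, 160.4 and 97.1 CPM. All 3 values of *Adra1b*, and those of *Adra2a* except in constricted replicate 2, lay between the untreated and the dilated libraries. Of the 13 adrenergic and muscarinic receptor genes measured, 7 passed the filter on low counts. *Chrm2* (log2 fold change -0.17 ± 0.41), *Chrm3* (0.66 ± 0.54), *Chrm1* (-0.77 ± 0.52) and *Adra1a* (-0.68 ± 0.55) did not pass the test, and at 1.75 to 36.9 CPM their errors are wide. *Adra1a* and *Chrm2* are also among the dilator muscle markers used below, and *Chrm3* is among the sphincter markers. *Adra1a* was at 1.75 to 15.7 CPM in stroma 2 and 243 to 507 CPM in dilator nuclei. *Chrm2* was at 8.76 to 12.5 CPM and 213 to 675 CPM. The part of muscle RNA in the stroma 2 values of these receptor genes was not tested. *Adra1d*, *Adra2b*, *Adra2c*, *Adrb1*, *Adrb3* and *Chrm4* had 0 to 2.42 CPM in any of the 5 libraries.

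Of 37 tested members of the cyclic nucleotide list 8 rose and none fell, where 1.35% of all genes tested rose, and the median log2 fold change of the list was 0.34 (0.0085 over all genes). The members of this and the other lists were chosen with earlier results of these data known. Setting their counts beside the share over all genes is therefore no test of enrichment. Both enzymes that make cyclic AMP and enzymes that remove it were among them. *Adcy6*, an adenylyl cyclase gene, was at 23.0, 22.2 and 18.7 CPM and 47.7 and 47.9 CPM, and *Adcy2* had a log2 fold change of 1.63 ± 0.32. *Pde8b*, which encodes a phosphodiesterase selective for cyclic AMP, was at 33.8, 50.0 and 53.2 CPM and 133 and 143 CPM (log2 fold change 1.58 ± 0.21, adjusted p = 0.00379). *Pkia* and *Pkig*, inhibitors of protein kinase A, rose by 1.49 ± 0.23 and 0.86 ± 0.19, and *Prkar2b*, a regulatory subunit of the kinase, by 1.47 ± 0.23. *Mrvi1*, a partner of cyclic GMP-dependent kinase, was the eighth. *Pde10a*, a dual phosphodiesterase gene named here after its values were seen, had the largest rise of the list, from 33.8, 40.3 and 33.4 CPM to 259.8 and 283 CPM (log2 fold change 2.94 ± 0.49). Its level was also 176, 645 and 167 CPM in the constricted libraries, above every untreated library, and in constricted replicate 2 above both dilated ones.

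In the actin-linked genes untreated replicate 1 often lay nearest to the dilated libraries. Of 36 tested members of the SRF/MRTF-type list, 8 rose and none fell (1.35% and 0.383% over all genes tested). A log2 fold change above 0 was found for 34 of them (median 0.79). The summed level of the list was 7344 CPM in untreated and 7746 CPM in dilated replicate 1, the first series. In the third series it was 3931 and 3999 CPM in the untreated libraries and 8637 CPM in the dilated one. *Csrp2*, a LIM protein gene of smooth muscle, was at 83.4, 78.5 and 72.7 CPM in untreated and 244 and 346 CPM in dilated libraries (log2 fold change 1.97 ± 0.21, adjusted p = 0.00137). *Flna*, the gene of the actin cross-linker filamin A, was at 145, 82.3 and 86.6 CPM and 249.6 and 197 CPM. *Actn4*, a non-muscle alpha-actinin, was at 226, 134 and 139.5 CPM and 342 and 367 CPM, and *Pdlim5*, an adaptor that binds alpha-actinin, at 396, 256 and 279.6 CPM and 641 and 547 CPM. Their log2 fold changes were 1.18 ± 0.22, 1.17 ± 0.21 and 1.00 ± 0.18, and the other 4 rises were *Actn1*, *Nexn*, *Limd1* and *Luzp1*. Of 14 tested YAP/TAZ-TEAD targets 2 rose, with a median of 0.33 over the list. These were *Ccdc80*, a secreted matrix protein gene (1.34 ± 0.22), and *Crim1*, which encodes a membrane protein that binds BMPs (1.02 ± 0.19).

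Several classic members of these lists, named here after their values were seen, had large differences that did not pass the test. *Tagln*, an actin-binding smooth muscle gene, was at 458, 66.6 and 70.5 CPM in the untreated replicates and 469.7 and 659 CPM in the dilated ones (adjusted p = 0.275). *Ctgf* was at 346, 84.4 and 79.8 CPM and 396 and 688 CPM (adjusted p = 0.168), and *Cyr61*, like it a secreted matricellular protein gene, at 71.3, 5.32 and 2.83 CPM and 95.4 and 151 CPM (adjusted p = 0.143). *Acta2*, smooth muscle actin, was at 128, 39.7 and 53.2 CPM and 139 and 171 CPM (adjusted p = 0.121). In all 4 genes untreated replicate 1 lay close to the dilated libraries, and without it their adjusted p-values were 0.00162, 0.0163, 0.00202 and 0.00633. Without this library 18 of the SRF/MRTF-type members and 5 of the YAP/TAZ-TEAD targets were called, in place of 8 and 2. It is the only untreated library of the first series, so dilated replicate 1 is then set against the third series alone. Leaving out the untreated library nearest to the dilated ones also tends to lower p. These lower p-values and larger counts are therefore no separate support for a rise. In untreated replicate 1 the summed level of the dilator muscle markers in stroma 2 nuclei was 255 CPM, against 188 and 196 CPM in the other untreated libraries and 300 and 132 CPM in the dilated ones. *Tagln* was highest in dilated replicate 2, where these markers were lowest, and their part in the result was not tested.

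**Figure D2:**
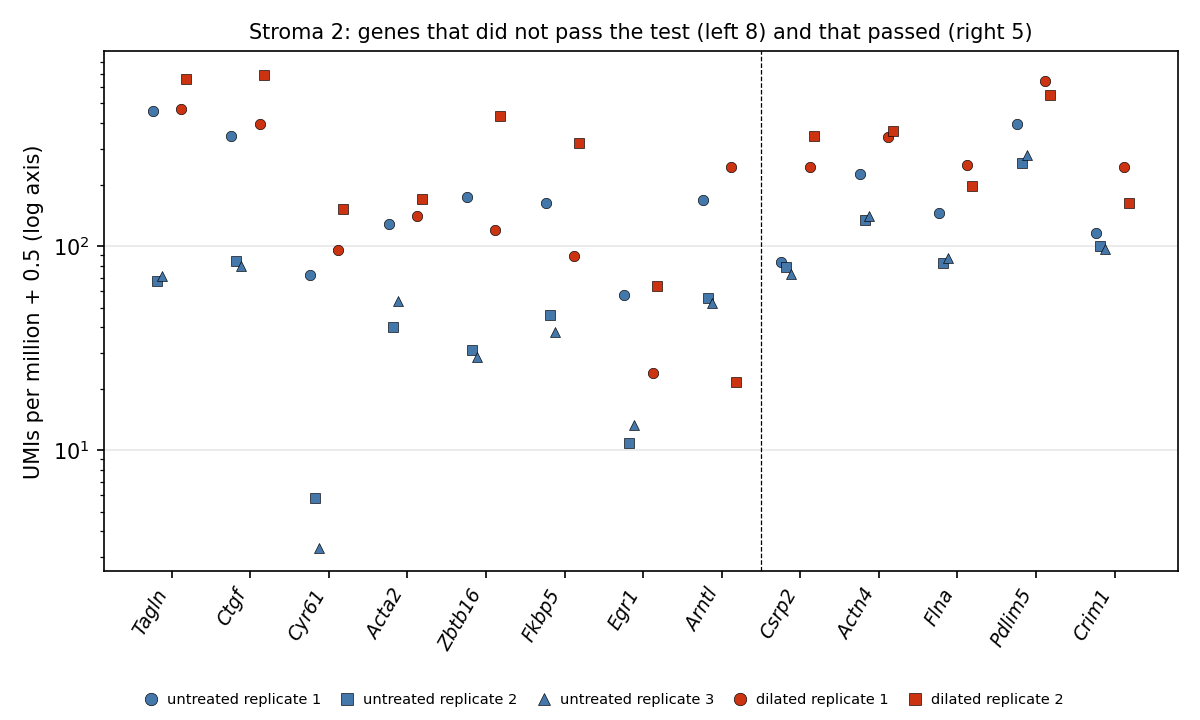
Level in stroma 2 of genes of the mechanical, immediate early, glucocorticoid and clock lists, in CPM plus 0.5 on a log axis, with a symbol for each library. For the 8 genes left of the dashed line, which did not pass the test, untreated replicate 1 (blue circle) lies above the other untreated libraries, near or within the dilated range; for the 5 genes on the right, which passed, all untreated libraries lie below both dilated ones.

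The promoters of 4 called genes of these lists and of the early response genes are shown because they hold a searched motif, in 100 bases of RefSeq sequence (GRCm38.p6, the strand of the gene) with the motif in capitals, TEAD core GGAATG or its reverse complement in the first 3 and the cyclic AMP response element TGACGTCA in the last. They lie at chr17:78200122-78200221 for *Crim1* (plus strand), chrX:74246628-74246727 for *Flna*, chr7:28962483-28962582 for *Actn4* and chr17:26508562-26508661 for *Dusp1* (minus strand for the last 3).
Crim1: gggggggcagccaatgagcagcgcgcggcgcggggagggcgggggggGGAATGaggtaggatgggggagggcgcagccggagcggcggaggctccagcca
Flna: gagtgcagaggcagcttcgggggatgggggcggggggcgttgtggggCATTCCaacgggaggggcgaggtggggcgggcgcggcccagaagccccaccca
Actn4: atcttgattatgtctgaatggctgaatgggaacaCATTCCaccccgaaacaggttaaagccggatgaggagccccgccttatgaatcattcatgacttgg
Dusp1: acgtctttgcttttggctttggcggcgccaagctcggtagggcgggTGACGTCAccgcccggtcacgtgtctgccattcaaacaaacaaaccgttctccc
Of the 10 called members of the 2 mechanical lists and the 12 largest rises, 6 and 6 had a promoter in the table (300 bases, 250 before the start and 50 after), and on either strand the TEAD core was in 3 of the 6 list members and 1 of the 6 rises, where 14.7% of all 32851 promoters hold it. The cyclic AMP response element was in 1 of these genes, *Dusp1* (1.79% of all promoters). The AP-1 motif TGANTCA was in *Actn4* and *Cacng5* (7.81% of all promoters) and the glucocorticoid half-site AGAACA in *Flna* (19.0%), while the CArG box bound by SRF was in none (1.63%). A match describes letters in this window and not a bound site.

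Of 22 tested immediate early genes 6 rose and none fell (1.35% and 0.383% over all genes tested), with a median log2 fold change of 1.08. Beside *Nr4a1* and *Dusp1* they were *Errfi1*, a feedback inhibitor of the EGF receptor, at 73.7, 37.8 and 38.2 CPM and 139 and 430.5 CPM, *Gem*, a small GTPase, at 48.3, 39.1 and 37.4 CPM and 89.5 and 240.1 CPM, *Fosl2* and *Btg2*. In *Errfi1*, *Gem* and *Btg2* dilated replicate 2 was the higher dilated library. *Fos* (adjusted p = 0.0544) and *Egr1* (adjusted p = 0.615) did not pass. *Egr1* was at 56.8, 10.3 and 12.7 CPM in the untreated replicates and 23.4 and 63.1 CPM in the dilated ones, with overlapping groups. The median of the list was 0.48 without dilated replicate 2 and 1.68 without dilated replicate 1.

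Of 19 tested glucocorticoid-responsive genes 2 rose (1.35% over all genes tested), *Dusp1* and *Errfi1*, which are also on the early response list. The median was 1.08, but in the first series the summed level was lower in the dilated library, at 1246 against 1320 CPM. In the third series it was 2895 CPM in the dilated library and 670 and 643 CPM in the untreated ones. *Fkbp5* and *Zbtb16*, both well known to rise with glucocorticoids, did not pass (adjusted p = 0.404 and 0.257). *Fkbp5* was at 162, 45.4 and 37.6 CPM in untreated and 89.2 and 318 CPM in dilated libraries, and *Zbtb16* at 173, 30.3 and 28.0 CPM and 119.7 and 433 CPM, with untreated replicate 1 above dilated replicate 1 in both. Of 17 tested clock genes 1 rose, *Cry1*, a repressor of the clock, at 44.7, 18.5 and 12.2 CPM and 86.8 and 83.5 CPM (log2 fold change 2.04 ± 0.37, adjusted p = 0.0199). *Arntl*, which encodes the clock activator BMAL1, did not pass but differed within groups, at 167, 55.4 and 52.4 CPM in the untreated and 243 and 21.0 CPM in the dilated replicates. The libraries of the first series were at 167 and 243 CPM and those of the third series at 55.4, 52.4 and 21.0 CPM, so *Arntl* differed more between series than between conditions.

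Matrix genes moved in both directions. Of 34 tested collagen genes 4 rose and 1 fell (1.35% and 0.383% over all genes tested). The median log2 fold change of the list, 0.091, was -0.048 without dilated replicate 1 and 0.22 without dilated replicate 2. *Col8a1* (chromosome 16 from 57624258 to 57754737), which encodes a short-chain collagen of basement membranes, was at 64.1, 76.6 and 67.9 CPM in the untreated replicates and 412 and 308 CPM in the dilated ones (log2 fold change 2.40 ± 0.18, adjusted p = 9.80e-05). *Col4a3* and *Col4a4*, which encode chains of the same basement membrane collagen, rose by 1.61 ± 0.24 and 1.20 ± 0.23. *Col12a1*, a fibril-associated collagen, rose from 119.7, 86.6 and 91.4 CPM to 234 and 248 CPM, but it was at 246, 252 and 354 CPM in the constricted libraries, within or above the dilated range. *Col26a1* was the collagen that fell.

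Among the other matrix genes and protease inhibitors 9 of 42 tested rose and 3 fell (1.35% and 0.383% over all genes tested), and the median was 0.46. The protease inhibitor genes that rose included *Timp3*, which acts on metalloproteases, from 89.4, 66.3 and 61.7 CPM to 261 and 208 CPM (log2 fold change 1.77 ± 0.19, adjusted p = 0.00137) and *Serpine2*, at 294, 441 and 337 CPM and 763 and 663 CPM. *Thbs1* and *Thbs2*, the fibrillin gene *Fbn2*, *Thsd4*, *Adamts5* and *Tmem2*, which encodes a hyaluronidase (280.4, 259 and 255 CPM and 547 and 539 CPM), also rose. *Vcan*, *Postn* and *Adamts16* fell. The list thus holds both a rising and a falling ADAMTS protease.

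**Figure D3:**
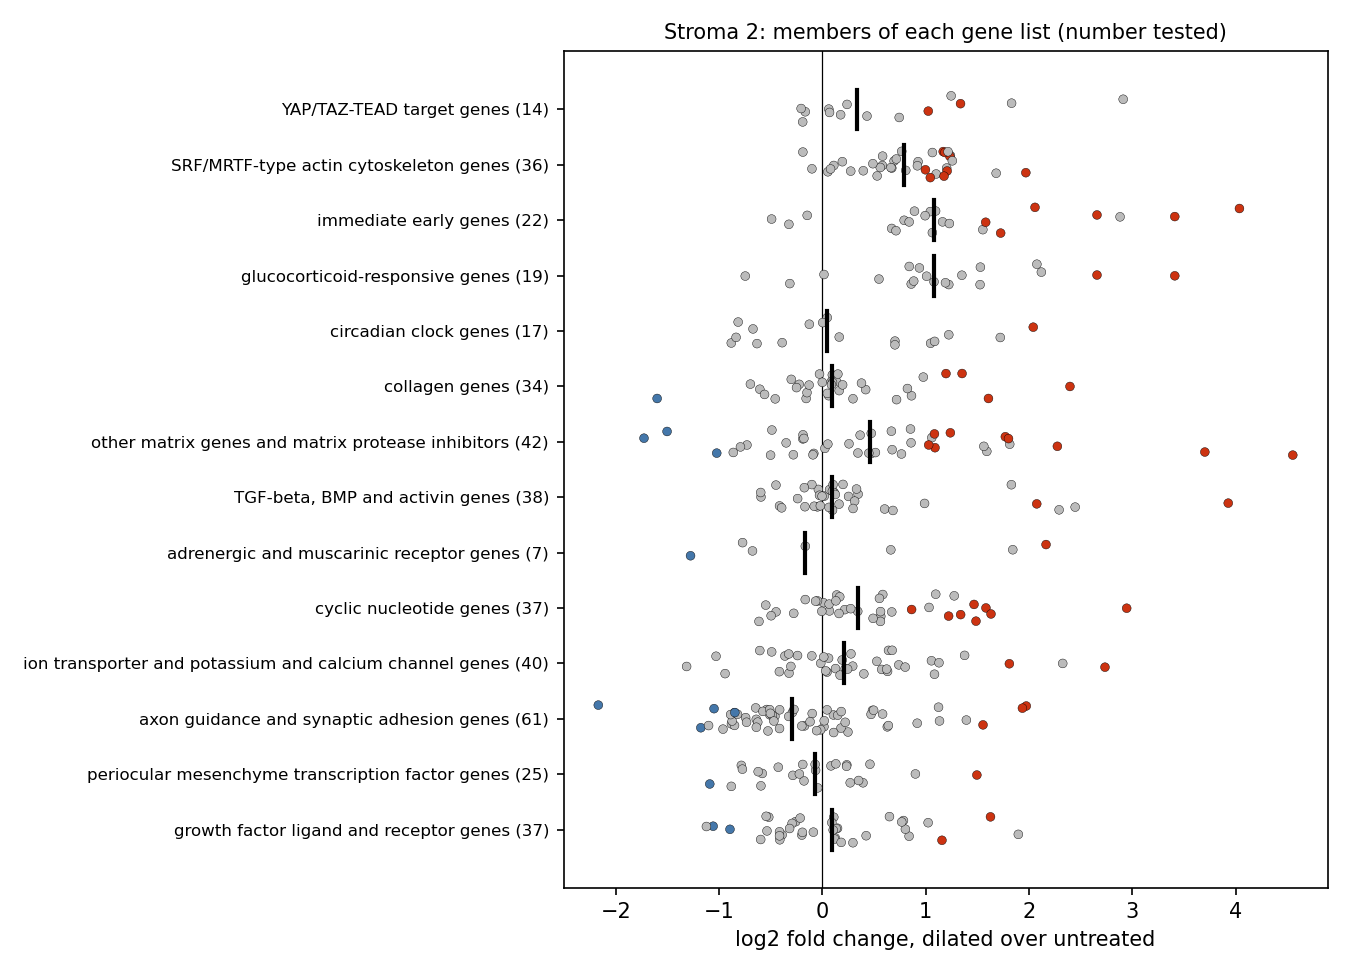
Log2 fold change, dilated over untreated, of the tested members of each gene list in stroma 2, with the number tested beside the name; red points rose, blue points fell, grey points did not pass the test, and black bars are medians. The medians of the SRF/MRTF-type, immediate early and glucocorticoid lists lie at 0.79, 1.08 and 1.08, and the axon guidance list lies at -0.29.

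Growth factor signals changed in a few members, where 1.35% of all genes tested rose and 0.383% fell. Of 38 tested TGF-beta, BMP and activin genes 2 rose, *Fst* and *Tmem100*, the latter a membrane protein gene induced by BMPs (99.1, 74.8 and 76.1 CPM and 275 and 392 CPM), and the median was 0.097. Among 37 tested growth factor ligands and receptors 2 rose and 2 fell. *Edn3*, the ligand endothelin-3, was at 176, 135 and 134 CPM in the untreated replicates and 294 and 579 CPM in the dilated ones, and *Egfr* at 37.5, 43.5 and 46.4 CPM and 101 and 87.0 CPM. *Hgf*, hepatocyte growth factor, fell from 694, 673 and 685 CPM to 325 and 386 CPM. The constricted libraries were at 363, 524 and 412 CPM for *Hgf* and 212, 327 and 512 CPM for *Edn3*, with 1 and 2 of them within the dilated range.

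Of 61 tested axon guidance and synaptic adhesion genes 3 rose and 4 fell (1.35% and 0.383% over all genes tested). The rises were *Ntn4*, *Sema3g* and *Slit3*, all secreted guidance cues, and the falls *Lypd1*, *Nlgn1*, *Cntnap5b* and *Sorcs3*, all at the membrane. The median was -0.29, and with the library series as a block 3 rose and 14 fell. Over all 12788 genes tested 399 rose and 248 fell with this block. *Sema3g* was at 37.5, 26.3 and 35.7 CPM and 96.8 and 146 CPM, and *Cntnap5b* at 596, 688 and 672 CPM and 334 and 279 CPM. Of 25 tested transcription factors of the periocular mesenchyme, from which the iris stroma forms, *Mef2c* rose from 72.5, 90.1 and 72.7 CPM to 207 and 226 CPM (log2 fold change 1.49 ± 0.21, adjusted p = 0.00586) and *Zeb2* fell from 1874, 2003 and 2044 CPM to 1006 and 796 CPM (log2 fold change -1.09 ± 0.19, adjusted p = 0.0140). The median of these 25 genes was -0.071.

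Of 40 tested ion transporter and channel genes 2 rose and none fell (1.35% and 0.383% over all genes tested), with a median of 0.21. *Slc12a2* (chromosome 18 from 57878678 to 57946821), which encodes the sodium, potassium and chloride cotransporter NKCC1 that takes chloride into cells, was at 371, 202 and 146 CPM in the untreated replicates and 1454 and 1548 CPM in the dilated ones (log2 fold change 2.73 ± 0.36, adjusted p = 0.00379). The lowest dilated level was over 3 times the highest untreated one, and the constricted libraries were at 765, 393 and 329 CPM. *Kcnk13*, a two-pore potassium channel gene, was at 61.6, 65.7 and 31.4 CPM and 237 and 116 CPM.

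The share of nuclei in which a gene was detected moved as its level did. For these shares each nucleus was thinned to 1000 UMIs, which left out 42 of 2054 dilated and 119 of 3040 untreated stroma 2 nuclei as too shallow. A UMI of *Slc12a2* was in 57.0 ± 4.18% of dilated and 17.03 ± 7.51% of untreated nuclei (SD over libraries), or 70.7% and 30.0% before thinning. For *Fst* the shares were 27.8 ± 4.41% and 4.07 ± 1.05% (37.0% and 7.28% before), and for *Zeb2* 52.4 ± 4.16% and 80.1 ± 2.73% (77.4% and 94.0%). *Adra1b* was found in 7.62 ± 0.316% and 19.4 ± 0.537% of nuclei (15.99% and 33.1%). In the iris pigmented epithelium, used as background, thinned shares were 0.585% and 0.159% for *Fst*, 3.27% and 2.01% for *Slc12a2* and 0.695% and 0.638% for *Adra1b*, at medians of 3006 to 3581 UMIs per nucleus against 2281.5 to 2999 in stroma 2. *Zeb2*, *Adamts16*, *Col8a1* and, in dilated libraries, *Pde10a* were present in this epithelium too, which is therefore no background for them.

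**Figure D4:**
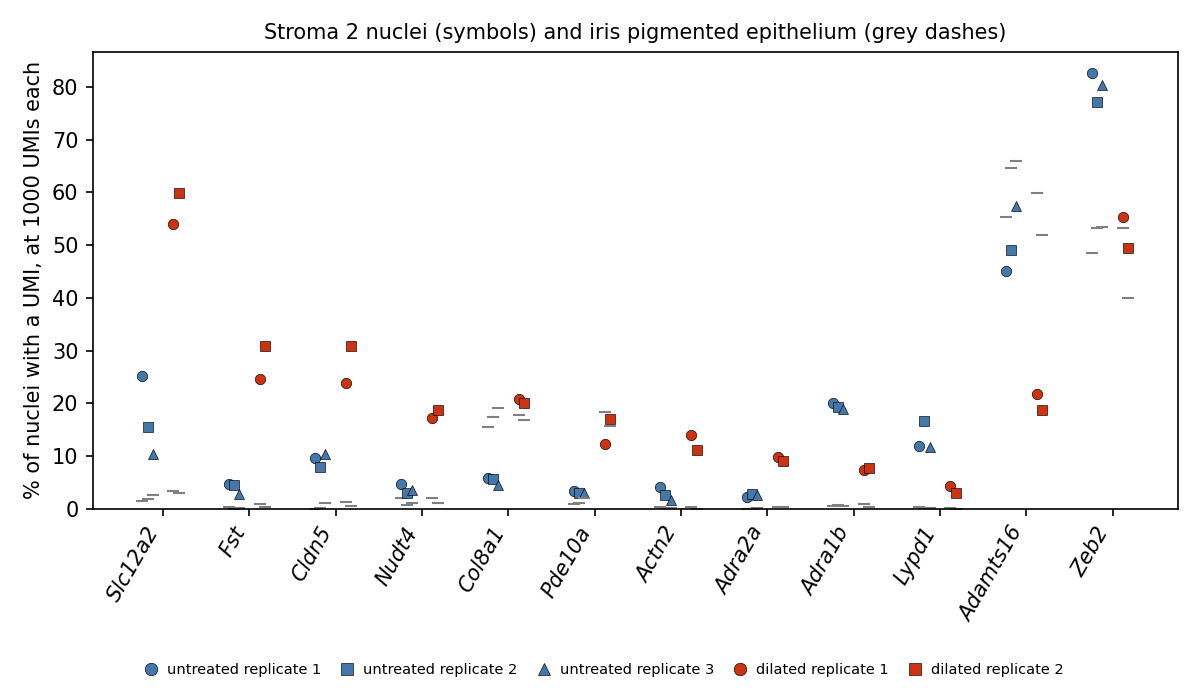
Percent of stroma 2 nuclei with a UMI of each gene after thinning to 1000 UMIs, by library, with the same share in iris pigmented epithelium as grey dashes. For *Slc12a2* the dilated libraries lie at 54.0% and 59.9% and the untreated ones at 10.4% to 25.2%, and the epithelium does not exceed 3.47%.

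None of the tested markers of dilator muscle (9), sphincter (5), stroma 1 (6), iris PE (7), ciliary body (7), pericytes (4), leukocytes (1) or Schwann cells (3) passed the test. Over all genes tested 1.35% rose and 0.383% fell, so the lack of a call among so few markers is near that share. The summed dilator marker level in stroma 2 nuclei was 2.76% to 5.64% of that in dilator nuclei of the same library, 5.64% in dilated replicate 1 and 2.76% in dilated replicate 2, and the summed stroma 1 markers ranged from 354 to 734 CPM, with both extremes in the dilated libraries. Of the 9 endothelial markers 5 were tested and 2 rose (1.35% over all genes tested). These were *Cldn5* (99.1, 105 and 132 CPM and 373 and 631 CPM), a tight junction gene, and *Erg* (6.04, 7.51 and 4.25 CPM and 58.5 and 23.4 CPM), a transcription factor gene. All 5 tested endothelial markers had a log2 fold change above 0 (median 1.02), among them *Flt1*, *Pecam1* and *Emcn*, which did not pass. The 4 that were too low to test, *Cdh5*, *Kdr*, *Tie1* and *Ptprb*, were at 0 to 9.67 CPM, with *Cdh5* at 1.62 and 0 CPM in the dilated libraries. The summed level of the endothelial markers was 258 to 342 CPM in untreated and 699 and 890 CPM in dilated libraries, and its part in the other results was not tested. *Cldn5* alone gave 373 and 631 CPM of the dilated sums. *Pecam1* overlapped, at 45.9, 19.7 and 14.4 CPM and 26.7 and 30.4 CPM. Before thinning, a UMI of *Cldn5* was in 40.2% of dilated and 18.3% of untreated stroma 2 nuclei. In the iris pigmented epithelium these shares were 3.36% and 1.39%. The part of endothelial RNA in the *Cldn5* values was not tested.

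To ask where the response of stroma 2 differed from that of other cells, the dilation effects of a pair of cell types were compared in a joint edgeR fit with a term for each library. Against stroma 1, the other stromal cluster (1777 nuclei), the log2 fold change was higher in stroma 2 for 215 of 12620 genes (1.7%) and lower for 88 (0.697%). Against dilator muscle (8230 nuclei), the muscle that phenylephrine contracts, it was higher for 539 of 15749 genes (3.42%) and lower for 651 (4.13%). Without untreated replicate 3 the genes that differed were 81 and 552 in all. Of 44 of the named genes, picked with their values known, 40 could be tested against stroma 1, and 12 had a higher and 3 a lower log2 fold change in stroma 2; against dilator muscle these numbers were 15 and 8 of 44.

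Some of the actin-linked genes that rose in stroma 2 were compared with stroma 1, while *Actn1*, *Nexn*, *Limd1* and *Luzp1* are not compared here. *Csrp2*, *Pdlim5*, *Actn4* and *Flna* had log2 fold changes of 0.23 ± 0.36, -0.15 ± 0.20, 0.13 ± 0.21 and 0.09 ± 0.31 in stroma 1, and the effect in stroma 2 was larger by 1.74, 1.21, 1.10 and 1.16 (adjusted p of the difference from 4.81e-04 to 0.0160). In dilator muscle *Csrp2*, *Pdlim5* and *Actn4* were higher in both dilated libraries than in every untreated one. *Flna* overlapped there, at 417, 274 and 239 CPM in untreated and 464 and 405 CPM in dilated libraries. The difference from stroma 2 passed the test for *Actn4* alone. *Slc12a2* was at 328 to 343 CPM in untreated and 349 and 392 CPM in dilated stroma 1, and its effect was larger in stroma 2 by 2.73 (adjusted p = 1.96e-07). *Mef2c* and *Zeb2* were well expressed in stroma 1 too, with log2 fold changes there of 0.01 ± 0.19 and 0.03 ± 0.17, and differed from stroma 2 by 1.56 and -1.08.

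**Figure D5:**
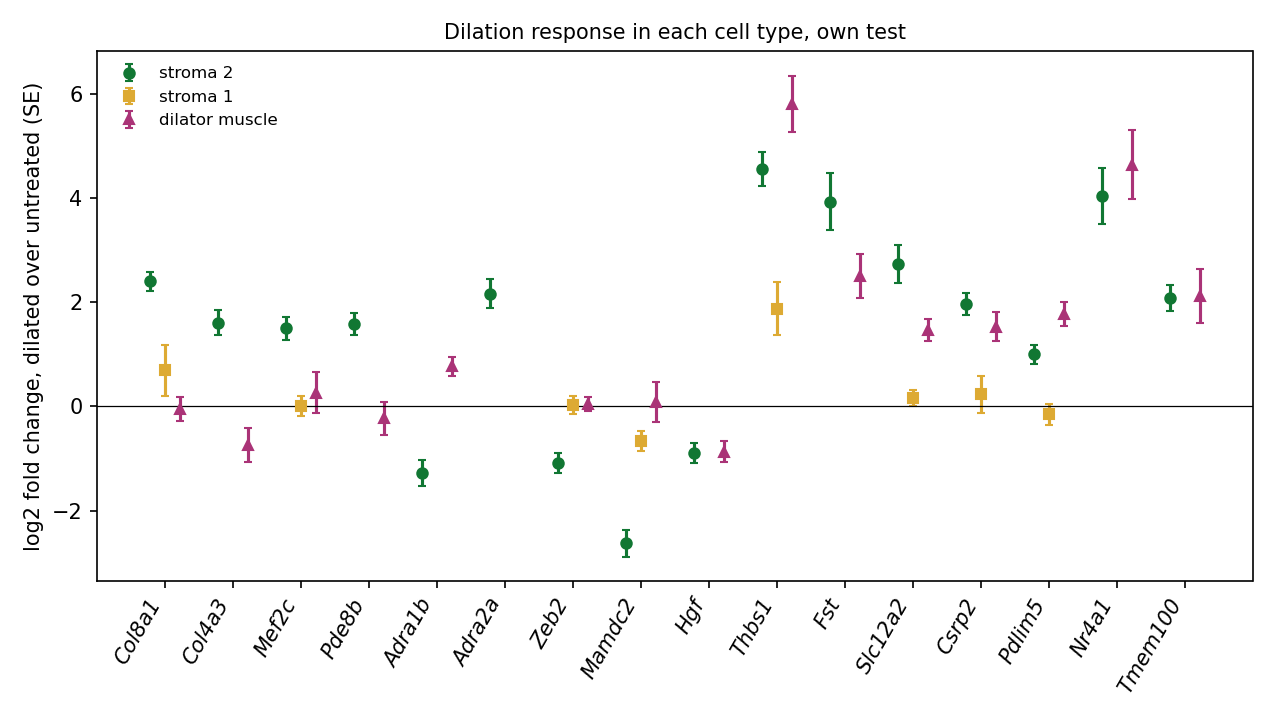
Log2 fold change, dilated over untreated, of 16 named genes in stroma 2 (green), stroma 1 (yellow) and dilator muscle (purple), each from the test within that cell type, with bars of 1 SE; a missing symbol means that the gene was not tested there. *Adra1b* lies at -1.28 in stroma 2 and 0.77 in dilator muscle, and *Col8a1* at 2.40 and -0.054.

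The effect on *Adra1b* had the opposite direction in dilator muscle. It rose in dilator muscle by 0.77 ± 0.18, from 26.2, 29.1 and 30.1 CPM to 43.6 and 42.9 CPM, so that the difference of the effects was -2.04 (adjusted p = 2.50e-06). The collagen genes *Col8a1*, *Col4a3*, *Col4a4* and *Col12a1* rose in stroma 2 and did not pass in dilator muscle, with differences of 2.47, 2.32, 1.95 and 1.25 (adjusted p from 3.04e-07 to 0.00176). *Timp3*, *Pde8b* and *Cry1* also had a larger effect in stroma 2 than in dilator muscle. Against stroma 1 a difference was called for *Col8a1* and *Timp3*. None was called there for *Col4a3*, *Col4a4*, *Col12a1*, *Pde8b* and *Cry1*, so these responses are not shown to be particular to stroma 2. Dilator nuclei held *Tmem100* at 0.623 to 5.04 CPM and *Hgf* at 15.9 to 38.6 CPM, against 74.8 to 392 CPM and 325 to 694 CPM in stroma 2, and the part of stroma 2 RNA in the dilator values of these genes was not tested. *Thbs1* rose in dilator muscle too, by 5.80 ± 0.54, and the difference from stroma 2 did not pass. *Tnfrsf12a* rose by 4.78 ± 0.89 in stroma 1 and 5.47 ± 0.39 in dilator muscle, and neither difference passed. In dilated libraries it was at 62.7 and 88.0 CPM in dilator nuclei and 11.6 and 9.93 CPM in stroma 2. The part of dilator RNA in the latter was not tested.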

How the data were processed

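Nuclei of pooled irises were sequenced with a droplet 3′ single nucleus method. The authors aligned reads to an mm10 pre-mRNA index with Cell Ranger 3.1.0 and filtered nuclei in Seurat (tools per the labels and the study's methods). The deposited values are raw UMI counts per gene and nucleus, with the percent of mitochondrial UMIs and an assigned cell type per nucleus from the authors. Both were used as deposited.

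UMI counts of nuclei assigned to stroma 2 were summed per library (22873 genes, 800 of them at 0). Of these, 12788 passed filterByExpr and were fitted with edgeR 4.0.16 (R 4.3.3, TMM, glmQLFit, glmQLFTest) over all 8 libraries. Stroma 2 totals of the 5 libraries compared were 827302 to 3710556 UMIs. On simulated data (12479 genes) the test recovered 28.4% of 88 genes changed by 1 and 82.7% of 110 changed by 2 on the log2 scale, with 9 false calls. Joint fits (library, cell type and their condition terms) gave the differences between cell types. Each SE of a log2 fold change is its absolute value divided by the square root of the F statistic of the test. It is thus derived from the test, and it can be off where the change is near 0. Scrublet in scanpy 1.11.5 marked 0.695% of stroma 2 nuclei as doublets, which were kept and left out in an alternative. In all, 195 barcodes occurred in over 1 library.

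The alternatives were DESeq2 1.42.0, RLE size factors, no filter on low counts, a block for the replicate number or the library series, the 5 libraries alone, no doublets and each library left out. Genes were named by a rule: the 12 largest rises and falls among called genes with a mean of at least 10 CPM in the higher condition and the same direction in all 6 pairs, up to 4 called members of each list with the lowest p, all adrenergic and muscarinic receptors and the cell type markers; others are said to be named after their values were seen. The members and lists were chosen with earlier results of these data known. Positions are from GENCODE (81 of 84 named genes matched) and promoters from RefSeq. A few genes that the rule names are not reported here.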

Additional observations from a re-analysis of the deposited data

Results flagged for a closer look

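The dilation effect itself differed between stroma 2 and another cell type, by the joint edgeR test, for the genes below. Values are the log2 fold change in stroma 2 minus that in the other cell type. The cell types share the same libraries.

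Against stroma 1 the difference was above 0 for *Thbs1* (2.77), *Tnfrsf11b* (3.48), *Ahr* (2.76), *Slc12a2* (2.73), *Col8a1* (1.75), *Csrp2* (1.74), *Mef2c* (1.56), *Pdlim5* (1.21), *Flna* (1.16), *Crim1* (1.16), *Actn4* (1.10) and *Timp3* (1.01). It was below 0 for *Gm7173* (-3.26), *Mamdc2* (-1.94) and *Zeb2* (-1.08). In stroma 1 *Thbs1* was at 1.79, 12.4 and 5.55 CPM in untreated replicates 1 to 3 and 33.4 and 21.7 CPM in dilated replicates 1 and 2. *Tnfrsf11b* was at 7.17, 6.59 and 8.01 CPM and 15.3 and 11.7 CPM there. Both were thus higher in the dilated stroma 1 libraries too, though *Thbs1* did not pass there (1.87 ± 0.51, SE). At these low levels the size of their differences is uncertain.

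Against dilator muscle the difference was above 0 for *Gpr176* (4.14), *Gm42556* (4.12), *Ahr* (3.98), *Col8a1* (2.47), *Col4a3* (2.32), *Col4a4* (1.95), *Cry1* (1.87), *Ccdc80* (1.83), *Pde8b* (1.69), *Fst* (1.54), *Slc12a2* (1.44), *Timp3* (1.25), *Col12a1* (1.25), *Mef2c* (1.18) and *Actn4* (0.61). It was below 0 for *Mamdc2* (-2.79), *Cntnap3* (-2.67), *Adra1b* (-2.04), *Lypd1* (-1.83), *Col26a1* (-1.62), *Zeb2* (-1.13), *Gm7173* (-1.03) and *Vcan* (-0.79). Of these genes, *Mef2c*, *Zeb2*, *Slc12a2*, *Col8a1*, *Ahr*, *Actn4*, *Timp3*, *Mamdc2* and *Gm7173* differed from both cell types. Several were near the floor in dilator nuclei, *Ahr* at 0 to 1.42 CPM, *Gpr176* at 0.401 to 2.49 CPM and *Lypd1* at 0.401 to 2.11 CPM. *Cntnap3* was at 1.20 to 3.12 CPM there and *Col26a1* at 0.401 to 4.36 CPM. Also low in dilator nuclei were *Mef2c* (2.81 to 4.59 CPM), *Fst* (1.55 to 10.6 CPM), *Pde8b* (4.21 to 8.10 CPM) and *Mamdc2* (6.81 to 10.6 CPM). The size of their differences is therefore uncertain, and the part of stroma 2 RNA in these dilator values was not tested.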

How the results depend on the processing

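All 61 named genes that were called kept their direction under every alternative. The log2 ratios within a library series add 1 CPM to each level, which draws those of genes at low levels toward 0. *Npas4* was at 3.60 in the first and 2.66 in the third series, against a fitted 4.92. *Errfi1* was at 0.90 and *Gem* at 0.87 in the first series and at 3.47 and 2.62 in the third. A ratio was set against the SD of the log2 ratios of the 6 pairs of libraries. In the first series 38 of the 61 named genes lay over 1 SD from the fitted value, and in the third series 16 of these 61 did. Without untreated replicate 3, 46 of them no longer passed, without untreated replicate 2, 39, without dilated replicate 1, 25, without dilated replicate 2, 15, and without untreated replicate 1, 9; under each other alternative with a test at most 1 was lost. With 1 dilated library left, that library is assumed to vary like the others. The 172 rises and 49 falls became 503 and 186 with no filter on low counts and 399 and 248 with the library series as a block, and the falls became 80 with DESeq2; the causes were not tested. Leaving out 1 library in turn gave 20 to 174 rises, 2 to 50 falls, 81 to 304 genes that differed from stroma 1 and 552 to 1277 that differed from dilator muscle. Of the 221 calls, 38 were shared without untreated replicate 2 and 22 without untreated replicate 3.

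Deviations of same-numbered libraries from their group means correlated at -0.018 to 0.45, so the replicate number was not taken to pair all samples; replicate 1 of each group is also the first library series. Deviations correlated at 0.13 to 0.45 within a series and at -0.45 to 0.044 between series. Centring on the group mean makes the deviations of the dilated replicates 1 and 2 exact opposites. Constricted replicate 1 was thus at 0.45 with the former and at -0.45 with the latter. The values within and between series are therefore not independent, and negative ones follow in part from the centring. With a replicate block 230 genes rose and 90 fell, and 208 of the 221 calls were shared. The median log2 fold change of the growth factor list, 0.090, was -0.12 with the replicate block and -0.080 with the library series as a block, and under the latter the medians of the clock and ion transport lists were -0.13 and -0.028 in place of 0.046 and 0.21. With the series block the members called were 12 in the SRF/MRTF-type, 4 in the YAP/TAZ-TEAD, 13 in the immediate early, 6 in the glucocorticoid, 2 in the clock and 4 in the TGF-beta list, all higher, and 13 higher and 5 lower among other matrix genes, 5 and 1 in ion transport, 3 and 5 in growth factors and 2 and 4 in the periocular transcription factors. Over all 12788 genes tested this block gave 399 rises and 248 falls, in place of 172 and 49. The calls thus grew over all genes, and larger member counts are no separate support for a list.

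When 1 library was left out, the medians ranged from 0.48 to 1.68 for the immediate early list, 0.31 to 1.46 for the glucocorticoid list, -1.12 to 0.48 for the receptors, -0.23 to 0.45 for ion transport, -0.64 to -0.075 for axon guidance, -0.56 to -0.00033 for the periocular transcription factors, -0.10 to 0.042 for growth factors, -0.048 to 0.22 for collagens and -0.039 to 0.24 for the clock list. On simulated data of this depth 28.4% of genes changed by 1 on the log2 scale were recovered.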

Other observations

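*Rasl11b*, *Arrdc3*, *Samd4*, *1700011I03Rik* and *Arid5b*, which were called under all 12 alternatives, belong to none of the lists of the report. Of the 408 tested genes with a log2 fold change above 1, 261 were not called, and in 245 of the 408 untreated replicate 1 was the highest untreated library. Among the 172 genes that rose this was so for 102. The share over all tested genes was not counted, so these counts cannot be read as particular to genes that rose.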
